A study of Mus musculus with 6 samples.

Results

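The genes described here encode the nuclear subunits of the 5 protein complexes of oxidative phosphorylation, and they were found in the deposited gene count table by their symbols alone. The patterns were Ndufa, Ndufb, Ndufc, Ndufs or Ndufv followed by a number for complex I, Sdha to Sdhd for complex II, symbols that begin with Uqcr for complex III, with Cox4 to Cox8 for complex IV and with Atp5 for complex V. Among 23358 entries, 84 matched, 36 in complex I, 4 in complex II, 8 in complex III, 19 in complex IV and 17 in complex V. A filter on low counts kept 82 of the 84 among 16280 tested genes. Cox7b2 had 0 counts in all 6 libraries and Cox8c between 0 and 4 counts, and neither was tested. The symbol rule also took in 3 genes that are not subunits of the complex in their name, namely Cox4nb (a neighbour of Cox4i1, now called Emc8), Atp5s and Atp5sl (now Dmac2l and Dmac2). It placed Ndufa4 in complex I, although the protein is now counted as a subunit of complex IV. Cyc1 of complex III and Ndufab1 of complex I fall outside the rule. The table held 0 of 26 symbols looked for of subunits encoded in mitochondrial DNA, which are not analysed here.

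The libraries came from immature mouse chondrocytes of the hip and knee (femoral head, femoral condyles and tibial plateau) of mice of the strain C57BL/6 - mix at post-natal day 5. The cells were grown as micromasses, dense spots of cells that lay down cartilage matrix, with Insulin-Transferrin-Selenium, ascorbic acid and β-glycerol phosphate in all groups. Wildtype cells and cells deficient in Ezh2, the methyltransferase of Polycomb repressive complex 2, were harvested on days 3, 7 and 14, with 1 library for each genotype and day. The library titles call the deficient cells Ezh2_cKO, a conditional knockout, and the Cre driver and the deleted part of the gene are not given in the sources used here. Nothing says whether libraries came from separate animals or cultures. The 3 days therefore stand in for replicates of a genotype and the 2 genotypes for replicates of a day, and p-values measure only the spread between these libraries, which may be technical.

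The libraries held between 51985214 and 79323302 counts, and every count was even, so 2 counts are taken as 1 sequenced fragment. Levels are given as CPM, counts relative to the library total after scaling by trimmed mean of M values (TMM), and where genes are compared with each other as the deposited RPKM, which is per length of transcript. Ezh2 was at 24.7, 40.2 and 27.9 CPM in wildtype libraries on days 3, 7 and 14 and at 14.7, 23.0 and 17.6 CPM in Ezh2-deficient libraries, a log2 difference of -0.74 ± 0.08 (SE) with an adjusted p = 0.0729, which does not pass 0.05. Reads outside the deleted part do not check the labels. The 7 chondrocyte markers (Col2a1, Acan, Sox9 and others) summed to 125767, 70231 and 33056 CPM in wildtype and 122018, 49635 and 20735 CPM in Ezh2-deficient libraries, so the defining markers were present in all 6 libraries, and all 7 fell between days 3 and 14. Markers of other cells moved as well. All 10 osteoblast and macrophage genes rose between days 3 and 14: 5 osteoblast genes summed to 96.4, 153 and 9653 CPM and 187, 556 and 32503 CPM, and 5 macrophage genes to 128, 1226 and 1676 CPM and 93.1, 1299 and 2419 CPM. In bulk RNA, fewer cells of a type and less RNA per cell cannot be told apart.

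Oxidative phosphorylation passes electrons from NADH and succinate along complexes I to IV of the inner mitochondrial membrane to oxygen, while protons are pumped outward. ATP synthase, complex V, lets the protons flow back and makes ATP. Growth plate and articular chondrocytes live in tissue without blood vessels and are known for making much of their ATP by glycolysis. Several subunits of complex IV exist as paired isoforms, with a widely expressed form and a form known mainly from heart and skeletal muscle, brown fat, testis or tissue short of oxygen.

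Nuclear genes of the respiratory chain are known targets of the factors NRF1, GABP (NRF2) and ERR. RefSeq promoter sequences (GRCm38.p6, the build named mm10 in the processing notes, 250 bases before to 50 bases after each start) were found for 69 of the 84 genes. The motifs searched as exact letters on both strands were NRF1 GCGCANGCG, GABP CCGGAAG, YY1 AAGATGGCG, ERR AAGGTCA and Sp1 GGGCGG. The NRF1 letters were in 19 of 69 promoters (27.5%) against 12.1% of the 12552 promoters of tested genes. The corresponding shares were 10.1% against 2.72% for YY1, 11.6% against 3.27% for ERR and 21.7% against 16.1% for GABP. The Sp1 letters were in a smaller share, 40.6% against 61.1%. A match describes the letters in this window and is not evidence of binding.

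The promoters shown are those of some of the genes that carry the contrasts described below. They are the complex II genes Sdha and Sdhd, which did not pass the test between days, and Sdhb, which fell. The others are Atp5g2 and Ndufb4, which fell, and the muscle-type isoforms Cox7a1 and Cox8b, which rose from day 3. No promoter was found for Sdhc, which did not pass. Not shown are Atp5g1, which fell, with 0 matches in 300 bases, and Atp5g3, which did not pass, with an NRF1 and an ERR match. Each line gives the 250 bases before the start, 5′ to 3′ on the strand of the gene, with matches to the 5 motifs on either strand in capitals; matches to different motifs do not overlap in these lines. The positions are chr13:74350241-74350490 for Sdha, chr9:50603850-50604099 for Sdhd, chr15:102671048-102671297 for Atp5g2, chr16:37654369-37654618 for Ndufb4 and chr7:140900447-140900696 for Cox8b, all on the minus strand, and chr4:140961021-140961270 for Sdhb and chr7:30183921-30184170 for Cox7a1 on the plus strand.
Sdha: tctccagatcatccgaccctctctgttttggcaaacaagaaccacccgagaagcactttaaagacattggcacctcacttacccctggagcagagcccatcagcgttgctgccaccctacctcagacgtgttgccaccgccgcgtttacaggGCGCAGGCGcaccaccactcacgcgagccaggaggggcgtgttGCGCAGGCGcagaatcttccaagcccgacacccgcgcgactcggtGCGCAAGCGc
Sdhd: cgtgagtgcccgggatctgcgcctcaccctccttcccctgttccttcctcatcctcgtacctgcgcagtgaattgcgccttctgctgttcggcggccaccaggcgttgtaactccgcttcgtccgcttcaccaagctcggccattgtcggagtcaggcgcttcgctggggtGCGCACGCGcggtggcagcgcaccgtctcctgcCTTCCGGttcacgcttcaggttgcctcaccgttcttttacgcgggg
Sdhb: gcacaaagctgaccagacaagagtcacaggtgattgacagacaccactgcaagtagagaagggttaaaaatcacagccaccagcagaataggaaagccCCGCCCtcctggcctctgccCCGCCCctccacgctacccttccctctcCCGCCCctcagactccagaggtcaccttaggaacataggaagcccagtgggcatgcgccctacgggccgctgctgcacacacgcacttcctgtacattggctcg
Atp5g2: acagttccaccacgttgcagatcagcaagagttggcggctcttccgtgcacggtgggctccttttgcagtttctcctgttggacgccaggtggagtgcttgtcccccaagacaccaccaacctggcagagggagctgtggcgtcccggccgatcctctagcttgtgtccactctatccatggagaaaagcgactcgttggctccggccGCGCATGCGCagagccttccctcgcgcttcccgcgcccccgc
Ndufb4: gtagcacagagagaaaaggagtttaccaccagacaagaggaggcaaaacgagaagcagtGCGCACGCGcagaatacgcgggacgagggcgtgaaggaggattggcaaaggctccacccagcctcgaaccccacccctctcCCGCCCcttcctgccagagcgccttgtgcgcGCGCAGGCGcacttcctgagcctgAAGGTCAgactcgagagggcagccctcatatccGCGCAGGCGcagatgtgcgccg
Cox7a1: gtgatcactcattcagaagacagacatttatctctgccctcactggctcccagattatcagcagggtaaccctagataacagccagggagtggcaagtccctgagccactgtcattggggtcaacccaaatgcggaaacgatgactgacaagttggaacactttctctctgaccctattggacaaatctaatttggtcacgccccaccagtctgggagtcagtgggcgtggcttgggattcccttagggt
Cox8b: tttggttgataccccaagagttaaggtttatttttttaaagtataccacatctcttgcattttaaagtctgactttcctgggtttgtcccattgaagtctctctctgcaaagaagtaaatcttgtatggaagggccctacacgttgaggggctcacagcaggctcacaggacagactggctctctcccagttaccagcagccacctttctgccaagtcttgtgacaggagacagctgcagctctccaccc
The Sdha line holds 3 NRF1 matches and the Sdhd line an NRF1 and a GABP match, while the Sdhb line holds 3 Sp1 matches. In the full 300 bases counted for the shares, Sdhb also has a GABP match, Sdhd an ERR and an Sp1 match and Atp5g2 an Sp1 match. Atp5g2 has a palindromic NRF1 match that counts on both strands, and Ndufb4 has 3 NRF1 matches, an ERR match and an Sp1 match. The Cox7a1 and Cox8b lines hold 0 matches. Among tested members, the 19 with an NRF1 match had a median log2 difference of -0.18 between days 14 and 3 and the 49 without it -0.28, with 4 and 22 members called lower in edgeR, where 22.4% of all tested genes were lower and 23.2% higher. For Sp1 the order was the other way, with -0.30 for the 27 with a match (12 lower) and -0.21 for the 41 without (14 lower). Medians with and without a match were -0.17 and -0.30 for GABP, -0.18 and -0.27 for YY1 and -0.15 and -0.25 for ERR. These values are a description.

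The 84 genes took between 0.573% and 0.740% of all counts. Their summed level was 7206, 6666 and 6173 CPM in wildtype libraries on days 3, 7 and 14 and 7210.4, 6766 and 5989 CPM in Ezh2-deficient libraries, so the TMM-scaled sum was lower on each later day in both genotypes. As a plain percent of counts it was higher on day 7 (0.718% and 0.740%) than on day 3 (0.674% and 0.676%) and lowest on day 14 (0.625% and 0.573%), so the direction of the day 7 step depends on the scaling. Per length, complex V genes were the most abundant on day 3 in wildtype, with a median of 125 RPKM, ahead of complex III with 93.8, complex IV with 68.9, complex I with 52.3 and complex II with 51.9 RPKM. In each of the 6 libraries complex V had the highest median, complexes III and IV lay between, and complexes I and II were lowest. The order within the last 2 pairs was not the same in all libraries. Atp5b, the catalytic β subunit of ATP synthase, had the highest mean over the 6 libraries, at 293, 289 and 261 RPKM in wildtype and 299.8, 320.0 and 235 RPKM in Ezh2-deficient cells. Cox6a1, Cox4i1, Atp5g3 and Atp5a1 followed, with means of 229, 204, 197 and 181 RPKM, and the ranges of neighbours in this order overlapped over the libraries.

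**Figure D1:**
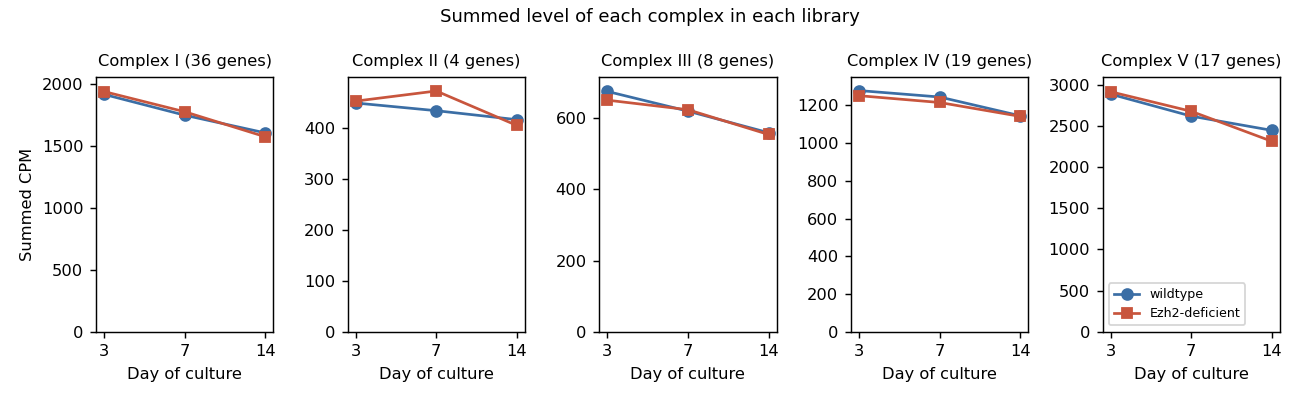
Summed CPM of the genes of each complex (vertical axis, from 0) against day of culture (horizontal axis) in wildtype (blue circles) and Ezh2-deficient (red squares) libraries, 1 library per point. The sums of all 5 complexes were lower on day 14 than on day 3 in both genotypes, and the 2 lines of each complex lie close together.

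At the low end stood forms with a restricted expression: Cox6b2, Cox7a1, Cox6a2 and Cox8b had means of 4.77, 3.13, 2.39 and 4.89 RPKM, against over 100 RPKM for Cox6a1 and Cox8a. Ndufs5, a small accessory subunit of complex I, had between 20 and 46 counts per library, or at most 1.07 RPKM, far below every other complex I gene. The entry BC002163, a pseudogene, overlaps the interval of Ndufs5 in the table and shares at least 200 bases with it at 95% identity or more, so the low value of Ndufs5 is uncertain. In all, 25 of the 84 genes share that much sequence with another annotated gene or pseudogene, by duplication or by overlap, among them Atp5l with 9 such partners and Atp5h and Uqcrb with 3 each. How reads that fit more than 1 place were counted is not stated in the labels.

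Between genotypes the subunits differed little. In edgeR, with the 3 days as replicates, 0 of 82 members were higher and 0 lower in Ezh2-deficient cells, beside 0.0% and 0.0123% of all tested genes. At an unadjusted p under 0.05, 3 were higher (3.66%) and 5 lower (6.10%), beside 6.82% and 6.33% of all tested genes. DESeq2 called 1 higher (Cox8b, adjusted p = 0.00877, between that and 1.00 over the alternatives tried) and 1 lower (Cox4i2), 1.22% each beside 2.29% and 1.44% of all tested genes, and limma-voom called 0. These shares were at or below the background. The median log2 difference was -0.0071 over the members and -0.0018 over all tested genes. Of the 82 members 75 (91.5%) lay within 0.2 of 0 on the log2 scale, against 61.0% of all tested genes, whose mean levels were not matched. The members outside that band were Ndufa3, Ndufs5, Cox4i2, Cox6a2, Cox6b2, Cox7a1 and Cox8b. On single days, 76 members with a mean of at least 10 CPM had log2 ratios between -0.41 (Cox4i2) and 0.21 (Ndufv1) on day 3, between -0.62 (Cox4i2) and 0.23 (Ndufs7) on day 7 and between -0.40 (Ndufa3) and 0.35 (Uqcrq) on day 14.

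**Figure D2:**
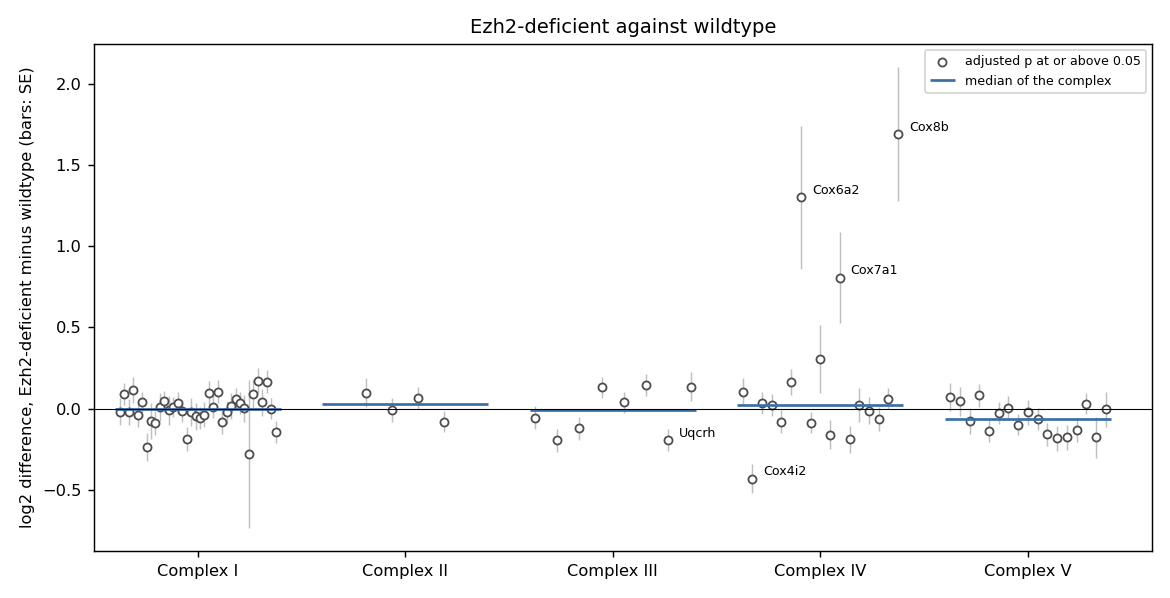
log2 difference between Ezh2-deficient and wildtype cells over the 3 days (vertical axis) for each tested member, grouped by complex (horizontal axis), with bars for the SE and a blue line for the median of the complex. All points are open because 0 of 82 passed an adjusted p of 0.05, and only Cox8b, Cox6a2, Cox7a1 and Cox4i2 lie beyond 0.4 from 0.

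The 4 genes of complex II, succinate dehydrogenase, had small genotype differences. Sdha, the flavoprotein that oxidises succinate, was at 168, 183 and 185 CPM in wildtype and 188, 213 and 173 CPM in Ezh2-deficient libraries, a log2 difference of 0.10 ± 0.09. Sdhb, the iron-sulfur subunit, was at 116, 77.4 and 65.2 CPM and 105, 78.9 and 69.3 CPM, with a difference of -0.010 ± 0.07 that turned positive with RLE factors, in DESeq2 and without the day 3 pair. The membrane anchors Sdhc and Sdhd differed by 0.064 ± 0.07 and -0.080 ± 0.06. For the 4 genes the values of the genotypes overlapped over the days, and the adjusted p ran from 0.635 upward.

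Core subunits of the other complexes gave the same picture. In complex I, Ndufv1, the NADH-binding subunit, was at 56.7, 55.1 and 51.4 CPM in wildtype and 65.7, 63.8 and 54.2 CPM in Ezh2-deficient libraries, higher in the deficient library on each day, with a log2 difference of 0.17 ± 0.07 (adjusted p = 0.390). Ndufs7, an iron-sulfur subunit, differed by 0.17 ± 0.08 (adjusted p = 0.429), and these were the 2 highest differences of complex I. Among genes with a mean of at least 1 CPM, its low end was the accessory subunit Ndufa3, at 34.1, 44.6 and 40.4 CPM in wildtype and 32.04, 38.1 and 30.7 CPM in Ezh2-deficient libraries (-0.24 ± 0.09, adjusted p = 0.353), and Ndufb2 (-0.19 ± 0.07, adjusted p = 0.376). Of complex III, the Rieske iron-sulfur protein Uqcrfs1 and the core protein Uqcrc1 differed by 0.14 ± 0.07 and 0.13 ± 0.06, and the small subunits went both ways, with -0.20 ± 0.07 for Uqcrh, -0.20 ± 0.07 for Uqcr11 and 0.14 ± 0.09 for Uqcrq. Uqcrh, the hinge protein, was at 128, 117 and 106 CPM in wildtype and 106, 108 and 92.8 CPM in Ezh2-deficient libraries, lower in the deficient library on each day. None of these passed (adjusted p = 0.430, 0.440, 0.332, 0.335 and 0.574).

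In complex V the 5 subunits of the head and central stalk went both ways, with 0.069 ± 0.09 for Atp5a1, 0.046 ± 0.09 for Atp5b, 0.081 ± 0.07 for Atp5d, -0.074 ± 0.08 for Atp5c1 and -0.14 ± 0.07 for Atp5e. Atp5o of the peripheral stalk had 0.031 ± 0.07, and 6 further genes of the peripheral stalk and the small membrane subunits (Atp5f1, Atp5h, Atp5j, Atp5j2, Atp5k and Atp5l) had negative differences, from -0.18 to -0.027. Atp5k, subunit e of the membrane part, was at 43.4, 51.1 and 48.4 CPM in wildtype and 41.8, 44.96 and 39.6 CPM in Ezh2-deficient libraries, a difference of -0.18 ± 0.08 (adjusted p = 0.411). Atp5j2, subunit f, had -0.18 ± 0.08 (adjusted p = 0.400). Counted by direction, 16 of 82 members (19.5%) were higher and 22 (26.8%) lower in the Ezh2-deficient library on all 3 days, beside 18.0% and 18.3% of all tested genes. In complex V these counts were 0 and 8 of 17. Small subunits have short transcripts: 31 members under 600 bases had a median difference of -0.065 and 45 longer ones 0.012, and the 137 tested genes under 600 bases at 10 CPM or more had -0.077. The part of transcript length in these differences was not tested.

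The isoform genes of complex IV, cytochrome c oxidase, were the members farthest apart between genotypes. Cox4i2 (chromosome 2, 152754173 to 152765037) encodes the form of subunit 4 known to be induced at low oxygen. It was at 52.1, 119.9 and 105 CPM in wildtype and 39.1, 77.9 and 87.8 CPM in Ezh2-deficient libraries on days 3, 7 and 14, lower in the deficient library on each day. The log2 difference was -0.43 ± 0.09, with an adjusted p = 0.177 in edgeR that does not pass. It was 0.0316 in DESeq2 and ran from 0.0316 to 1.00 over the alternatives tried. Its partner Cox4i1 was at 181, 169 and 145 CPM and 178, 179 and 172 CPM, a difference of 0.10 ± 0.08. As a share of the summed RPKM of both forms, Cox4i2 made up 21.2%, 39.9% and 40.3% in wildtype and 16.99%, 28.9% and 32.2% in Ezh2-deficient cells. The share was thus higher on days 7 and 14 than on day 3 in both genotypes, and lower in Ezh2-deficient than in wildtype cells on each day.

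A similar swap partner stands outside the symbol rule. Ndufa4l2 (chromosome 10, 127514939 to 127517156), a hypoxia-induced relative of Ndufa4, was at 205, 327 and 372 CPM in wildtype and 97.7, 148 and 258 CPM in Ezh2-deficient libraries, a difference of -0.91 ± 0.14 (adjusted p = 0.111). Ndufa4 itself was at 91.2, 87.3 and 66.4 CPM and 97.2, 90.3 and 51.2 CPM. Ndufa4l2 made up 53.5%, 65.7% and 74.1% of their summed RPKM in wildtype and 33.9%, 45.6% and 72.01% in Ezh2-deficient cells, so that the gap between genotypes was wide on days 3 and 7 and small on day 14. A list of 26 genes of glycolysis and of the response to low oxygen (Ndufa4l2 among them) had a median genotype difference of -0.40. In edgeR 0 were called and 23 were lower at an unadjusted p under 0.05, beside 6.33% of all tested genes. Car9 and Egln3, both known hypoxia targets, differed by -0.87 ± 0.08 and -0.99 ± 0.17 (adjusted p = 0.0644 and 0.121).

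Cox8b, Cox7a1 and Cox6a2 encode forms of their subunits known from heart, skeletal muscle and, for Cox7a1 and Cox8b, brown fat. Cox8b (chromosome 7, 140898942 to 140900446) was at 0.0303, 1.28 and 1.67 CPM in wildtype and 0.188, 6.58 and 2.88 CPM in Ezh2-deficient libraries, and Cox7a1 (chromosome 7, 30184171 to 30186030) at 0.334, 1.33 and 1.22 CPM and 0.538, 3.203 and 1.61 CPM. Cox6a2 (chromosome 7, 128205435 to 128206366) was at 3.52, 0.227 and 0.418 CPM and 5.65, 1.5 and 0.730 CPM. All 3 were higher in the deficient library on each day, with differences of 1.69 ± 0.41, 0.81 ± 0.28 and 1.3 ± 0.44 that did not pass (adjusted p = 0.221, 0.328 and 0.318). The day 3 wildtype value of Cox8b is 1 fragment, below the floor of 3 fragments (0.0910 CPM).

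Single libraries were also set against each other by day. Counted were genes with at least 1 CPM in the higher library, a ratio of at least 2-fold after a prior count of 2 and a counting interval that does not include 0 on the log2 scale. On day 7 these 3 of 82 members were higher, beside 2.08% of all tested genes, and 0 lower, beside 1.39%. On day 3 the counts were 0 higher and 0 lower (1.46% and 0.442% of all tested genes), and on day 14 likewise 0 and 0 (2.14% and 2.75%). Ndufs5, below 1 CPM, had 44 counts in wildtype and 20 in Ezh2-deficient cells on day 7. The day 7 log2 ratios were 2.34 (95% interval 1.91 to 2.86) for Cox8b, 1.25 (95% interval 0.77 to 1.78) for Cox7a1 and 2.57 (95% interval 1.65 to 4.0) for Cox6a2, intervals that cover counting error only since each day has 1 library per genotype. Without the day 7 pair their shared differences were 1.21, 0.53 and 0.73. No member passed the test for a genotype difference that changes with day (0 higher and 0 lower, beside 0.0614% and 0.553% of all tested genes, with 2 and 3 at an unadjusted p under 0.05, beside 5.01% and 8.30%, and 0 by DESeq2).

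Markers of cells that express these forms differed between the libraries too. The 6 adipocyte markers summed to 12.6, 157 and 57.8 CPM in wildtype and 71.1, 315 and 114 CPM in Ezh2-deficient libraries, highest on day 7 and higher in the deficient library on each day, with Fabp4 the largest at 8.16, 95.97 and 45.01 CPM and 45.2, 225 and 87.2 CPM. Ucp1, the defining gene of brown fat, had 2 counts in the wildtype day 7 library and 0 in the other 5. A list of 7 uncoupling and thermogenic genes summed to 18.7, 127 and 175 CPM in wildtype and 19.0, 132 and 195 CPM in Ezh2-deficient libraries. Of its 6 tested genes 5 were higher and 1 lower between days 14 and 3, beside 23.2% and 22.4% of all tested genes. Their median genotype difference was 0.49, with 0 called and 3 higher at an unadjusted p under 0.05 (6.82% of all tested genes). The 9 skeletal muscle markers summed to 10.2, 11.4 and 7.45 CPM and 14.96, 11.5 and 7.26 CPM, and the 3 heart muscle markers to at most 1.61 CPM. Their part in the levels of Cox8b, Cox7a1 and Cox6a2 was not tested. The entry of Itgad overlaps that of Cox6a2, and whether reads were counted by strand is not stated in the labels, so the Cox6a2 values are uncertain.

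**Figure D3:**
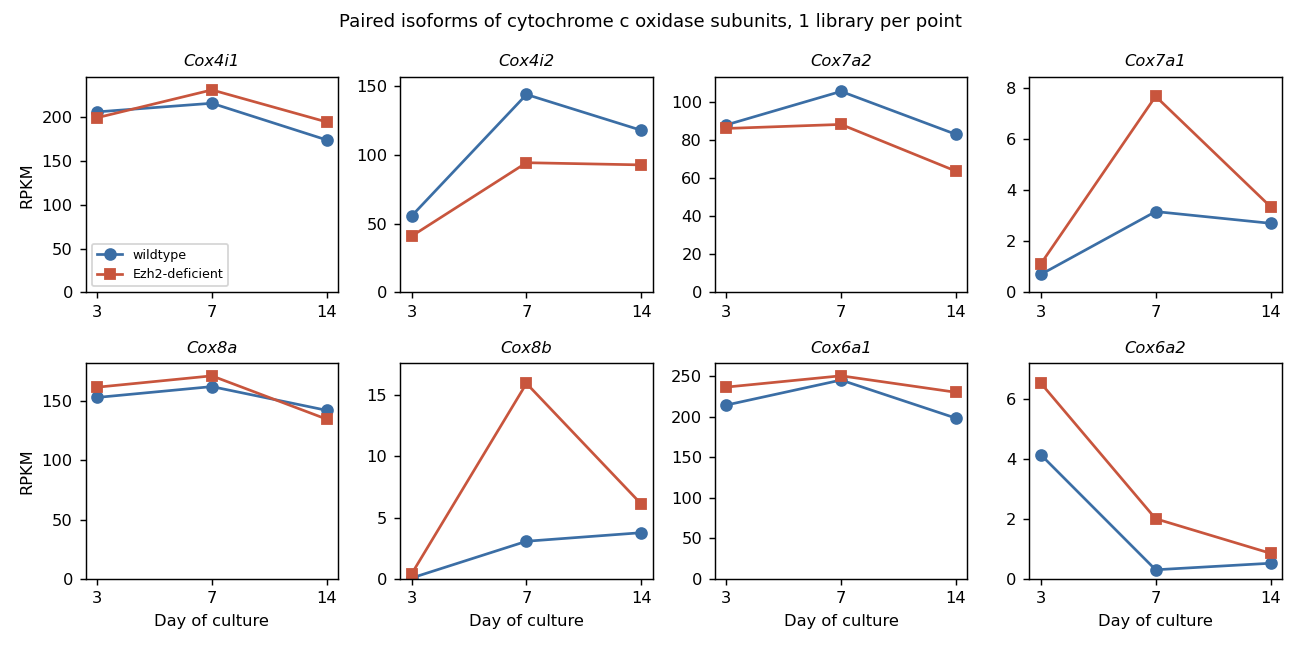
Deposited RPKM (vertical axes, from 0, scaled per gene) of 4 pairs of complex IV isoforms against day of culture, 1 library per point, wildtype in blue circles and Ezh2-deficient in red squares. Cox4i2 is lower in Ezh2-deficient cells on each day, and Cox7a1 and Cox8b peak in the Ezh2-deficient day 7 library at 7.69 and 15.9 RPKM, far below Cox7a2 and Cox8a.

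Even at their highest shares the muscle-type forms were minor. Cox8b made up 8.51% of the summed RPKM of the 3 Cox8 genes in the Ezh2-deficient day 7 library, and between 0.0422% and 4.32% in the others. Cox7a1 made up at most 4.18% of the Cox7a1, Cox7a2 and Cox7a2l sum, in the same library. Cox6a2 made up at most 2.68% of the Cox6a sum, in the Ezh2-deficient day 3 library. Cox6b2, the testis form of subunit 6b, made up 4.18% of the Cox6b sum in wildtype and 6.33% in Ezh2-deficient cells on day 14, with a genotype difference of 0.30 ± 0.21 that did not pass (adjusted p = 0.581). Cox7b2, another testis form, was at 0 counts, which allows at most 3 fragments per library, or between 0.0763 and 0.114 CPM.

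Over time in culture many subunits fell. In edgeR, with the 2 genotypes as replicates of a day, 32 of 82 members (39.0%) were lower on day 14 than on day 3 and 5 (6.10%) higher, while 22.4% of all tested genes were lower and 23.2% higher. The members' median log2 difference was -0.23 against -0.019 over all tested genes. A library scaling moves all genes alike, so the gap of -0.21 between these medians does not depend on it, and 67 of 82 members lay below the median of all tested genes. At 10 CPM or more, 31 members under 600 bases had a median of -0.235 and 45 longer ones -0.226. The 137 tested genes under 600 bases had -0.457 and the 9486 longer ones -0.058. Mean levels and lengths were not matched, and the median SE was 0.091 over the members and 0.160 over all tested genes. The part of length and level in the fall was not tested. In both genotypes 64 members (78.0%) were lower, 8 (9.76%) were higher in both and 10 (12.2%) moved in opposite directions, beside 41.8%, 39.3% and 18.8% of all tested genes. Without the day 7 pair, which leaves fewer libraries to estimate the spread, 15 were lower (18.3%) and 4 higher (4.88%), beside 15.0% and 19.5% of all tested genes, so the share of falls was then near the background. The total count scaling gave 18 of 82 lower and 5 higher, beside 17.6% and 24.6%. Of the 25 members that share sequence with another gene 15 were lower (Ndufs3, Ndufa12, Ndufa13, Ndufb3, Ndufb4, Ndufb5, Ndufb9, Ndufb11, Uqcrc2, Cox4nb, Cox5b, Cox7a2l, Cox7c, Atp5f1 and Atp5g1), with a median of -0.34, and of the other 57 there were 17 lower and 5 higher, with a median of -0.18. Without Cox4nb, Atp5s and Atp5sl, 30 of 79 members were lower and 5 higher.

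**Figure D4:**
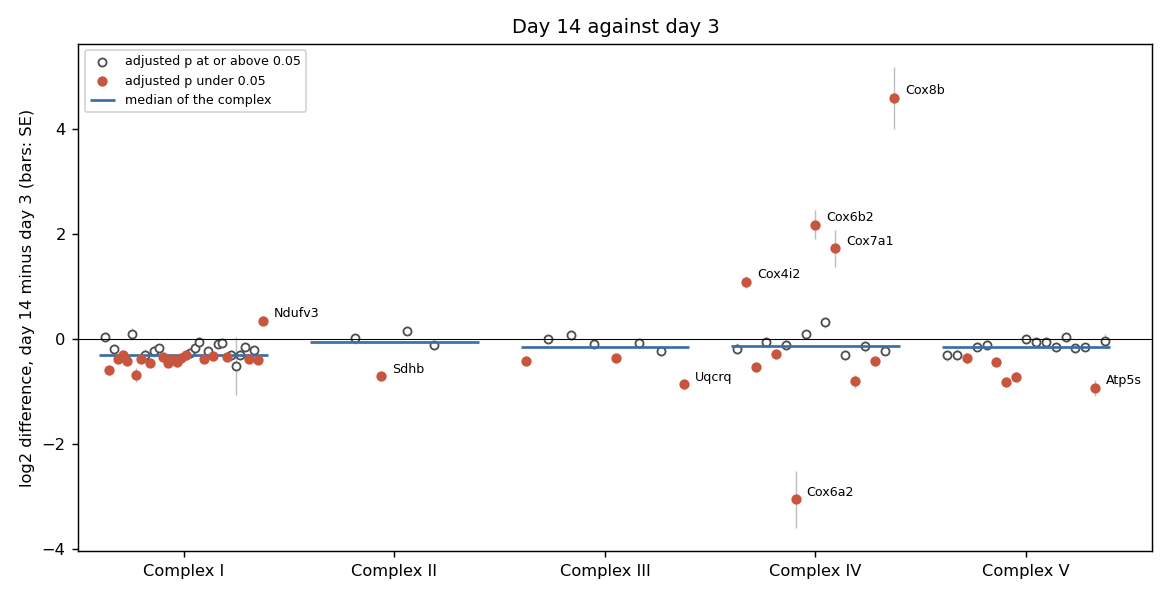
log2 difference between day 14 and day 3 (vertical axis) for each tested member, grouped by complex (horizontal axis), with bars for the SE, filled points for an adjusted p under 0.05 and a blue line for the median of the complex. Complex I holds 18 filled points below 0, and the 4 called rises of complex IV are Cox8b, Cox6b2, Cox7a1 and Cox4i2. Of all tested genes 22.4% were lower and 23.2% higher.

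Complex I gave the most called falls, 18 of 36 (17 of 35 without Ndufa4), beside 22.4% of all tested genes. The median over its genes was -0.31. With total counts only 7 of 36 were lower, and without the day 7 pair 6 of 36, beside 17.6% and 15.0% of all tested genes. The share of falls was then near the background. The median was -0.24 and -0.29, against 0.053 and 0.0018 over all tested genes. The falls named below are those with TMM scaling and all 6 libraries. Of the 7 core subunits, which carry the flavin and iron-sulfur clusters, 3 fell (Ndufs3 -0.34 ± 0.09, Ndufs8 -0.38 ± 0.10 and Ndufv2 -0.40 ± 0.08), while Ndufs1 differed by -0.10 and did not pass. Ndufs1 was at 86.3, 79.7 and 85.2 CPM in wildtype and 87.8, 89.4 and 77.3 CPM in Ezh2-deficient libraries. Among the 28 accessory subunits, 14 fell, by log2 differences from -0.60 to -0.31. Those of the A series were Ndufa2 (-0.41), Ndufa5 (-0.39), Ndufa7 (-0.45), Ndufa10, Ndufa12 (-0.38) and Ndufa13 (-0.31). The others were Ndufb2 (-0.39), Ndufb3 (-0.43), Ndufb4 (-0.37), Ndufb5 (-0.31), Ndufb9 (-0.38), Ndufb10 (-0.33), Ndufb11 (-0.45) and Ndufc2 (-0.33). Ndufa10 had the largest of these differences, at 67.7, 49.8 and 44.3 CPM in wildtype and 69.3, 56.1 and 46.2 CPM in Ezh2-deficient libraries, so that its day 3 values lay above all later ones (-0.60 ± 0.08, adjusted p = 0.00350). Ndufv3, a small regulatory subunit of the NADH module, rose by 0.35 ± 0.08 (adjusted p = 0.0193), at 54.9, 62.6 and 67.01 CPM and 47.99, 55.7 and 63.9 CPM. Ndufa4 fell by 0.69 on the log2 scale (adjusted p = 0.0104).

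In complex II the 4 genes did not move together. Sdhb (chromosome 4, 140961271 to 140979192) differed by -0.71 ± 0.09 between days 14 and 3 (adjusted p = 0.00269), and both of its day 3 values lay above all later ones. Sdha, Sdhc and Sdhd did not pass, with 0.012 ± 0.11, 0.16 ± 0.08 and -0.12 ± 0.08, and the direction of Sdha turned negative with upper-quartile factors (-0.028). The promoters, printed above, hold the NRF1 letters for Sdha and Sdhd and not for Sdhb, which is a description of 3 genes.

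Uqcrq (chromosome 11, 53428948 to 53430831), the ubiquinone-binding small subunit of complex III, had the largest fall of that complex. It was at 93.2, 58.98 and 44.7 CPM in wildtype and 91.0, 63.1 and 56.9 CPM in Ezh2-deficient libraries, a difference of -0.87 ± 0.11 (adjusted p = 0.00277), and the day 3 values did not overlap the later ones. Uqcr10 and the core protein Uqcrc2 also fell, with differences of -0.42 ± 0.09 and -0.36 ± 0.08. In all, 3 of 8 genes of complex III were called lower (37.5%, beside 22.4% of all tested genes). The other 5 genes of complex III did not pass, and lay between -0.23 (Uqcrh) and 0.079 (Uqcrb).

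In complex V, 5 of 17 genes fell (29.4%, near the 22.4% of all tested genes). They were Atp5c1, the rotating central stalk (-0.37 ± 0.10), Atp5f1 of the peripheral stalk (-0.43 ± 0.09), Atp5g1 and Atp5g2 of the c-ring, and Atp5s (-0.93 ± 0.15), which is no subunit. The catalytic subunits Atp5a1 and Atp5b had differences of -0.31 ± 0.11 and -0.30 ± 0.11 that did not pass (adjusted p = 0.0604 and 0.0726). Atp5g1, Atp5g2 and Atp5g3 encode the same mature c subunit with different import sequences. Atp5g1 (chromosome 11, 96072793 to 96075694) was at 136, 91.1 and 74.2 CPM in wildtype and 125, 99.03 and 74.7 CPM in Ezh2-deficient libraries (-0.81 ± 0.09, adjusted p = 0.00175), and Atp5g2 at 171, 129 and 103 CPM and 160.0, 118 and 97.98 CPM (-0.72 ± 0.08, adjusted p = 0.00163). Both were lower on each later day in both genotypes. Atp5g3, by contrast, was at 155, 177 and 166 CPM and 163, 175 and 151 CPM, with a difference near 0 whose sign depended on the scaling. Its share of the summed RPKM of the 3 genes was 35.1%, 46.04% and 50.03% in wildtype and 38.05%, 46.5% and 48.4% in Ezh2-deficient cells.

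Complex IV moved in both directions, with 5 genes called lower (29.4%) and 4 higher (23.5%), beside 22.4% and 23.2% of all tested genes. The share of rises was thus at the background. The 4 that rose are all isoforms of restricted expression. Cox8b rose by 4.6 ± 0.59, Cox6b2 by 2.18 ± 0.27, Cox7a1 by 1.73 ± 0.36 and Cox4i2 by 1.09 ± 0.11 (adjusted p = 0.00260, 0.00225, 0.0126 and 0.00123). Within single genotypes Cox8b had log2 ratios of 4.81 (95% interval 3.23 to 11.12) in wildtype and 3.74 (95% interval 2.83 to 5.3) in Ezh2-deficient cells, the first from 1 fragment on day 3. Cox6a2, the muscle form of subunit 6a, went the other way (-3.06 ± 0.55, adjusted p = 0.00785), and both of its day 3 values exceeded all later ones.

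Of the widely expressed forms Cox4i1, Cox6a1, Cox6b1, Cox7a2, Cox7b and Cox8a, 0 of 6 passed between days 14 and 3, with differences from -0.31 (Cox7a2) to 0.096 (Cox6b1). Cox7a2 was at 85.6, 91.4 and 76.6 CPM in wildtype and 85.3, 75.7 and 62.6 CPM in Ezh2-deficient libraries, with an adjusted p = 0.0570 between days 14 and 3 and a genotype difference of -0.19 ± 0.08. The other 5 had genotype differences of 0.10 (Cox4i1), 0.16 (Cox6a1), -0.087 (Cox6b1), -0.014 (Cox7b) and 0.061 (Cox8a), and 0 of 6 passed. Cox7a2l, a relative of Cox7a2 that takes part in assembling supercomplexes, was at 226, 107 and 111 CPM in wildtype and 192, 115 and 128 CPM in Ezh2-deficient libraries and fell by 0.81 on the log2 scale (adjusted p = 0.00524). Cox5b, Cox7c and Cox4nb fell, with differences of -0.28 ± 0.09, -0.43 ± 0.09 and -0.54 ± 0.08. Cox5a, at 64.7, 63.2 and 64.3 CPM and 65.98, 67.6 and 61.8 CPM, stayed within a narrow range in all 6 libraries.

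Between days 3 and 7, 5 members were higher (Cox8b, Cox7a1, Cox6b2, Cox4i2 and Cox6b1) and 12 lower, beside 19.5% and 16.6% of all tested genes, with a median of -0.087. The 12 were Ndufa2, Ndufa10 and Ndufb11 of complex I, Sdhb, Uqcrq, Cox4nb, Cox6a2 and Cox7a2l, and Atp5f1, Atp5g1, Atp5g2 and Atp5s, led by Cox6a2 (-2.7) and Cox7a2l (-0.91). With total counts only, these counts were 15 and 3 and the median 0.13, beside 26.5% and 7.68% of all tested genes, whose median then moved from -0.023 to 0.19. The direction of the members' median between these days therefore depends on the scaling. Between days 7 and 14, 0 were higher and 0 lower, beside 3.38% and 2.29%, with 1 and 15 at an unadjusted p under 0.05 (1.22% and 18.3%, beside 11.8% and 11.6% of all tested genes) and 0 and 1 by DESeq2 (beside 6.53% and 5.41%). The median was -0.15 against -0.014 over all tested genes, and 74 of 82 members had a negative difference. The other 8 (9.76%) had a positive one, beside 48.2% of all tested genes. These comparisons share libraries and are not independent of each other.

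**Figure D5:**
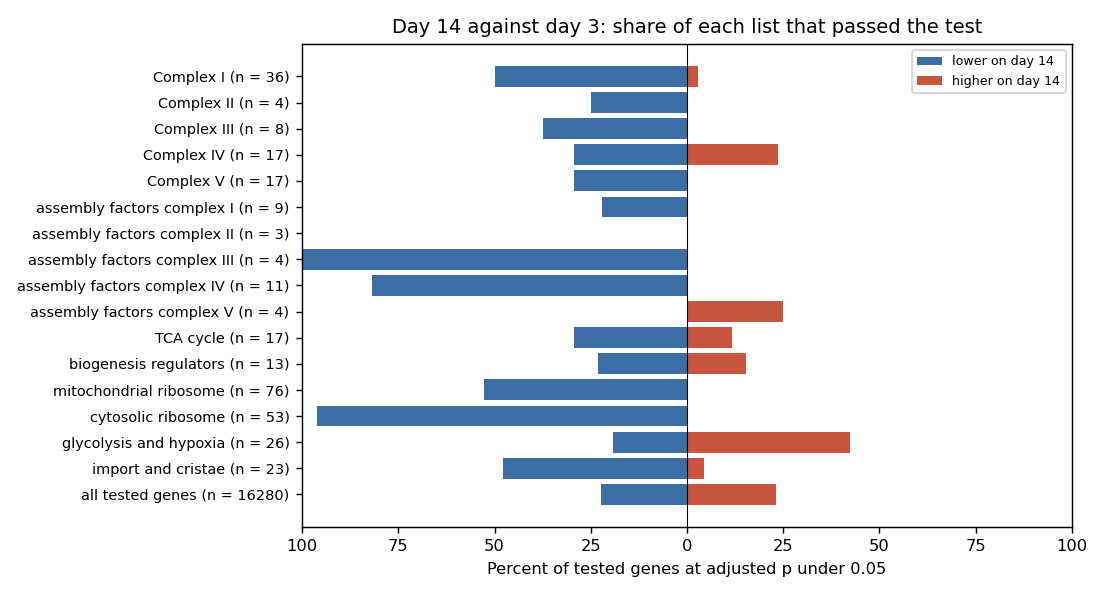
Percent of the tested genes of each list that passed an adjusted p of 0.05 between day 14 and day 3, lower on day 14 to the left (blue) and higher to the right (red), with the number of tested genes of each list in brackets. Mitochondrial and cytosolic ribosomal proteins and the assembly factors of complexes III and IV lie to the left, and the share of all tested genes is in the bottom row.

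Other genes of mitochondrial energy metabolism were described by counts of calls between days 14 and 3. Beside these counts, 22.4% of all tested genes were lower and 23.2% higher. The lists of assembly factors for complexes I to IV held 13, 5, 7 and 21 symbols, of which 9, 3, 4 and 12 were found among the deposited entries. All 4 tested assembly factors of complex III and 9 of 11 of complex IV were lower, among them Cox11 (-0.95 ± 0.12) and Cox10 (-0.84 ± 0.13), which serve copper and haem insertion, and Lrpprc (-0.88 ± 0.12), which stabilises mitochondrial mRNAs. Of the assembly factors of complex I, 2 of 9 were lower, Nubpl and Ndufaf4, which is near the share of all tested genes. Of 3 for complex II 0 passed, and of 4 for complex V 0 were lower and 1 higher, Atpif1 (0.40 ± 0.08), the inhibitor of ATP synthase. Mitochondrial ribosomal proteins were lower in 40 of 76 genes, with a median of -0.37 and 0 higher, and cytosolic ribosomal proteins in 51 of 53, with a median of -0.82. Import and cristae genes were lower in 11 of 23 and higher in 1, with the outer membrane channel Vdac3 at -1.29 ± 0.11 and the ADP/ATP carrier Slc25a4 at -1.11 ± 0.11.

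Genes of the tricarboxylic acid cycle split, with 5 lower and 2 higher of 17, beside 22.4% and 23.2% of all tested genes. Examples were Suclg2 (-0.92 ± 0.11) and Idh2 (0.47 ± 0.09). Of 13 regulators of mitochondrial biogenesis 3 were lower (Tfb1m -1.11 ± 0.17, Tfam -0.50 ± 0.10 and Tfb2m -0.47 ± 0.09) and 2 higher. These counts lay near the background of 22.4% lower and 23.2% higher of all tested genes. Ppargc1a, which encodes the coactivator PGC-1α, was at 1.03, 6.67 and 5.51 CPM in wildtype and 2.61, 11.5 and 4.45 CPM in Ezh2-deficient libraries, highest on day 7 in both (1.58 ± 0.41 between days 14 and 3, adjusted p = 0.0259). Of 26 glycolysis and hypoxia genes 11 were higher, 5 lower and 10 did not pass, beside 23.2% higher and 22.4% lower of all tested genes, with Car9 at 30.8, 118 and 333 CPM and 17.6, 67.9 and 166 CPM. In the comparison of genotypes 0 genes passed in any of these lists. Nnt, the transhydrogenase of the same membrane and no member, was among the 2 of all tested genes that did pass, at 57.7, 54.9 and 53.6 CPM in wildtype and 23.97, 22.7 and 19.7 CPM in Ezh2-deficient libraries (-1.33 ± 0.08, adjusted p = 0.0424 in edgeR). With total counts only, and without the day 7 or the day 14 pair, 0 of all tested genes passed between genotypes, so the Nnt call did not hold there. C57BL/6 substrains are known to differ in Nnt and the strain is labelled a mix, so for Nnt a strain difference and the loss of Ezh2 cannot be told apart.

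Beside the falls and rises of the chondrocyte, osteoblast and macrophage markers given above, proliferation markers (Mki67, Top2a, Cdk1 and Ccnb1) summed to 229, 984 and 661 CPM in wildtype and 289, 623 and 260.2 CPM in Ezh2-deficient libraries, highest on day 7. Between days 14 and 3, 0 of 4 passed, and between days 7 and 3, 3 were higher, beside 19.5% of all tested genes. In the test for a genotype difference that changes with day, 3 of the 4 passed with a difference that fell with day, beside 0.553% of all tested genes (median -0.75 per doubling of day). That test has 1 residual degree of freedom. At a minimum count of 50, and with counts divided by 2, it called 0 of all tested genes higher and 0 lower, so the 3 calls did not hold there. The part of these changes in cell makeup in the fall of the subunits was not tested.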

How the data were processed

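RNA-seq was made from 6 libraries, and the authors deposited a count and an RPKM value per gene, per the file headers. Per the submitters' processing notes CASAVA 1.9, TopHat and HTSeq were used with the build mm10. Options, annotation and strandedness are not given in the sources used here. Raw counts were scaled by TMM and fitted in edgeR 4.0.16 (R 4.3.3) by the quasi-likelihood test with terms for day and genotype, on 16280 genes that passed filterByExpr (minimum count 10), with 2 residual degrees of freedom, Benjamini-Hochberg adjustment over all of them and a threshold of 0.05. A second fit let the genotype difference change with the log2 of day (1 residual degree of freedom). The errors printed are SEs. Ratios of single libraries carry exact 95% binomial intervals on fragments, which cover counting error only, and a count of 0 allows up to 3 fragments. The deposited RPKM values, as the authors made them, were used to compare genes by length, untested. Alternatives included DESeq2 1.42.0, limma-voom (limma 3.58.1), 3 other scalings, 2 other filters and leaving out each day's pair. Scripts were tested on simulated data. Named genes are the members that passed a test, all of complex II, core subunits and isoform groups fixed by role, and in each complex the 2 highest and 2 lowest differences at 1 CPM or more; 1 gene of this rule is not reported here. The members and lists were chosen with earlier results of these data known.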

Additional observations from a re-analysis of the deposited data

How the results depend on the processing

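Each group had 1 library, so spread is judged only across days or genotypes. The genotype comparison is matched by day through its day term. Beyond that, no paired analysis was possible because every group has the same single replicate number. DESeq2 called 1 member higher and 1 lower between genotypes, and limma-voom 0. For day 14 against day 3, total counts gave 18 lower and a median of -0.16, upper-quartile factors a median of -0.27, and leaving out the day 7 pair 15 lower; of the 37 calls, 23, 37 and 19 were shared. In DESeq2 32 of the 37 were called and in limma-voom all 37. For day 7 against day 3 the median was -0.074 with RLE factors and in DESeq2, 0.13 (reversed) with total counts, -0.098 with upper-quartile factors, -0.083 without a filter, -0.082 at a minimum count of 50, -0.086 with counts divided by 2 and -0.072 without the day 14 pair, and total counts gave 15 higher and 3 lower. For day 14 against day 7 the median was -0.29 with total counts, and DESeq2 and the fit without the day 3 pair each called 1 lower. The median change of the genotype difference with day was -0.049 with total counts. The causes were not tested.

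The genotype differences that reversed were near 0. Without the day 7 pair they were -0.0031 for Atp5b, -0.059 for Atp5g1, -0.018 for Cox5a, -0.025 for Cox7a2l and -0.062 for Ndufs1. Without the day 14 pair they were 0.0073 for Atp5c1, 0.040 for Atp5g3, -0.058 for Cox7a2l and 0.068 for Cox7b, and without the day 3 pair 0.057 for Sdhb. With total counts they were -0.015 for Atp5g1 and -0.0022 for Ndufs1, without a day term -0.011 for Atp5g1 and -0.031 for Cox7a2l, and for Sdhb 0.0037 with RLE factors and 0.0036 in DESeq2. Between days 14 and 3, Atp5g3 and Uqcr11 reversed to 0.019 and 0.017 with RLE factors and in DESeq2, to 0.071 and 0.069 with total counts, to 0.0026 and 0.0012 at a minimum count of 50, and to 0.025 and 0.024 without the day 7 pair. Atp5g3 also reversed to 0.00011 with counts divided by 2, Atp5k to -0.00022 and Sdha to -0.028 with upper-quartile factors, and Cox5a to 0.022 with total counts.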
